A study of Homo sapiens with 4 samples.

Results

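The genes of the mitochondrial ribosomal proteins were examined in a chromatin immunoprecipitation sequencing (ChIP-seq) experiment labelled as PD-L1 ChIP. Members were the protein-coding RefSeq genes on chromosomes 1 to 22 whose symbol is MRPL or MRPS followed by a number and an optional letter. There were 77 of them among 19126 protein-coding genes, 49 named MRPL and 28 named MRPS. The cells were an untreated subclone of MDA-MB-231, an established line of triple-negative breast cancer, with wild type as its labelled genotype. Chromatin of 2 biological replicates was precipitated with an antibody against the HA tag, and each replicate has its own input library without antibody. The sources used here do not say how the tag was brought into the cells. No precipitation from cells without the tag was analysed here, so enrichment that does not depend on the tagged protein cannot be told apart from enrichment that does. PD-L1 is a membrane protein that restrains T cells by binding PD-1. The lists cannot show whether the tagged protein was made, and there is 1 peak list per replicate, so no comparison below has a test over samples.

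Mitochondrial ribosomes translate the few proteins encoded in mitochondrial DNA, which are core subunits of the respiratory chain and of ATP synthase. Their proteins are encoded in the nucleus, made in the cytosol and imported. The MRPL genes encode proteins of the large subunit, which forms peptide bonds, and most MRPS genes encode proteins of the small subunit, which reads the mRNA. Many of these proteins descend from bacterial ribosomal proteins, and others are found in mitochondria only. Their genes lie scattered over the chromosomes, and most are widely expressed.

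The lists held 166313 peaks of replicate 1 and 93106 of replicate 2 on chromosomes 1 to 22, with median widths of 611 and 636 bp. The enrichment of peaks at the members was close to that of all peaks. The 137 distinct peaks of replicate 1 in member windows had a median fold enrichment of 3.21 (2.52 to 4.24), against 3.14 for all peaks of that list. The 61 of replicate 2 had a median of 2.18 (1.92 to 2.75), against 2.27 for all. Fold enrichment is the authors' ratio over the background of the peak caller, and q is its adjusted p. The −log10 q of member peaks ranged from 1.40 to 3.39 in replicate 1 and from 1.31 to 2.85 in replicate 2. The depth of the libraries is unknown.

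A gene was counted as carrying a peak when a peak met its span plus 1 kb on each side by at least 1 bp. Of the 77 members, 64 (83.1%) had a peak of replicate 1, where 82% of all protein-coding genes had one. Only 36 members (46.8%) had a peak of replicate 2, against 65.9% of all genes. Peaks of both replicates were found in 33 members (42.9%), against 63.5% of all genes. Peaks of the replicates overlapped one another in the windows of 29 members (37.7%), against 51.7% of all genes. A further 31 members (40.3%) had peaks of replicate 1 alone, against 18.5% of all genes. Peaks of replicate 2 alone were found in 3 members (3.90%), against 2.43% of all genes, and 10 (13%) had none, against 15.6%, both shares close to the background.

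The members are short genes, with a median length of 8618 bp, against 24600 bp for the other protein-coding genes, and short genes meet fewer peaks. They lie in stretches with somewhat more peaks: the median number within 1 Mb of the window was 117 peaks per Mb for members and 92 for other genes in replicate 1, and 54.5 and 49.5 in replicate 2. The other genes were therefore sorted into 5 bins of length by 5 bins of this local density, and their shares were weighted by the number of members in each bin. In replicate 1 the members' share of 83.1% lay above the 76.5% of these genes of like length and density, by 6.62 percentage points. In replicate 2 the members' 46.8% lay below their 56.4%, by 9.67 points, and for peaks of both replicates 42.9% lay below 53.8%, by 10.9 points. The replicates thus differed in the sign of the difference. The Wilson 95% intervals of the members' shares were 73.2% to 89.9%, 36% to 57.8% and 32.4% to 54.0% in the same order, and each contains the share of the like genes. These intervals cover the counting of genes alone, and genes are not replicates. The difference of replicate 1 changed sign under several settings. It was −2.63 points with the 50% of peaks of higher fold, −4.16 points with a −log10 q of at least 2, and −0.339 points with as many peaks as in replicate 2, those of highest q.

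**Figure D1:**
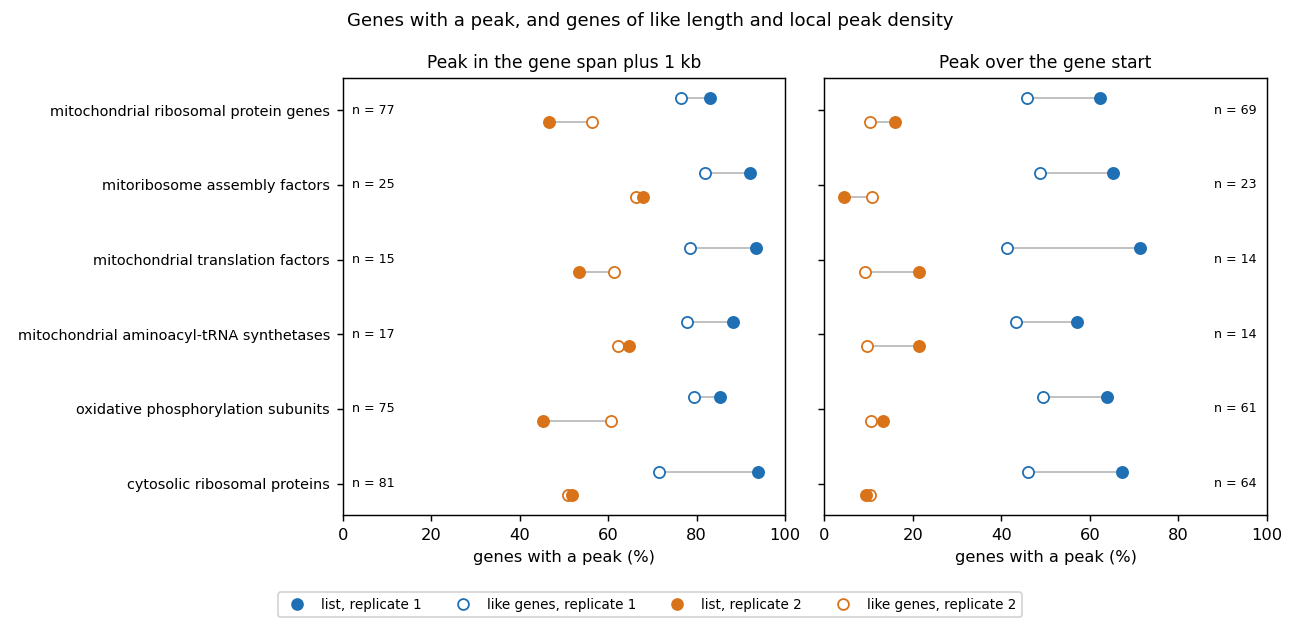
Share of genes with a peak (x axis, percent) in 6 gene lists, for the gene span plus 1 kb (left) and for the first base of the gene (right). Filled points are the list and open points the genes of like length and local peak density; blue is replicate 1 and orange replicate 2, and n is the number of genes, which on the right counts those with a known strand. Over the start, replicate 1 puts all 6 lists to the right of their like genes, with mitochondrial ribosomal protein genes at 62.3% against 45.7%.

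Peaks of replicate 1 covered the starts of these genes more often than those of like genes. The strand, and with it the start, was known for 69 members and 15032 other genes. A peak of replicate 1 covered the first base of 43 members (62.3%), where 45.4% of all genes with a strand had one and 45.7% of genes of like length and density. The Wilson interval of the members' share was 50.5% to 72.8%. The difference of 16.6 points shrank to 9.68 with a −log10 q of at least 2, to 6.30 with the 50% of peaks of higher fold, and to 6.70 when like genes were matched on CpG pairs in place of length. In replicate 2 it was 11 members (15.9%), against 9.97% of all genes and 10.3% of like genes, with an interval of 9.14% to 26.3%, and with a −log10 q of at least 2 the difference from like genes was −1.11 points. Both replicates covered the start in 9 members (13%), against 6.83% of all genes and 7.28% of like genes. Of the distinct member peaks in genes with a strand, 42 of 124 (33.9%) in replicate 1 and 11 of 55 (20%) in replicate 2 lay over a start. This share of peaks was not counted for other genes, so it has no background here. Other genes are longer and hold more peaks each, in replicate 1 a mean of 5.64 against 1.79 in members.

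The median centre of these start peaks lay just inside the gene. In replicate 1 they had a median width of 1066 bp (180 to 4821 bp), with the centre a median of 116 bp downstream of the first base. In replicate 2 the median width was 718 bp and the centre lay 18 bp downstream. Their median fold, 3.25 in replicate 1 and 2.18 in replicate 2, was close to that of the other member peaks, 3.23 and 2.18. The fold of start peaks thus differed little from that of the others. RefSeq lists more than 1 start for 11 of the 69 members and for 25.7% of the other genes, and the outermost was used. Counting a peak over any listed start gave 65.2% of members and 49.8% of like genes in replicate 1, and 17.4% and 12.4% in replicate 2.

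In the interior and 1 to 5 kb upstream of the start, a smaller share of members than of like genes had a peak. In the interior, more than 1 kb from either end, 31 of 65 members (47.7%) had a peak of replicate 1, against 61.9% of genes of like length and density, and 20 (30.8%) had one of replicate 2, against 42.8%. Between 1 and 5 kb upstream of the start the shares were 31.9% in members and 44.6% in like genes in replicate 1, and 18.8% and 26.8% in replicate 2. Within 1 kb of the far end of the gene the members differed little from like genes, with 46.4% against 44.4% in replicate 1 and 23.2% against 22.1% in replicate 2. Within 1 kb of the start they had 75.4% against 66.7% in replicate 1, and 26.1% against 28.1% in replicate 2.

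**Figure D2:**
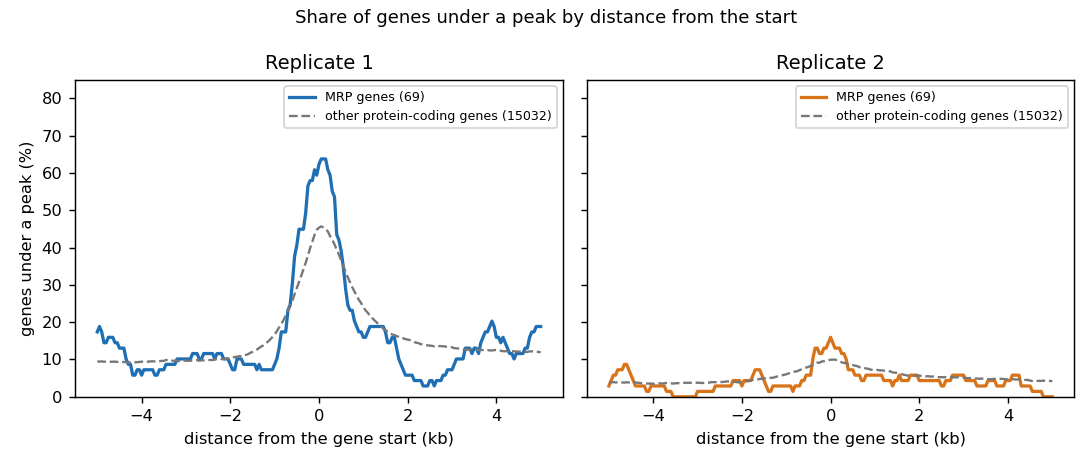
Share of genes under a peak (y axis, percent) by distance from the gene start (x axis, kb, with transcription to the right), in steps of 50 bp, for replicate 1 (left) and replicate 2 (right). Solid lines are the 69 mitochondrial ribosomal protein (MRP) genes with a known strand and dashed lines the 15032 other protein-coding genes. The members' line is highest from 50 to 150 bp downstream of the start in replicate 1, at 63.8%, and at the start in replicate 2, at 15.9%, above the other genes at 45.7% (at 50 bp) and 9.95%.

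Peaks of both replicates covered the start of MRPL17, MRPL19, MRPL30, MRPL34, MRPL57, MRPS7, MRPS12, MRPS23 and MRPS27. A further 34 members had a start peak of replicate 1 alone, and MRPL39 and MRPS18A had one of replicate 2 alone. MRPS12, a protein of the decoding centre, had a start peak 1322 bp wide in replicate 1 (fold 3.27) and 2537 bp wide in replicate 2 (2.02). MRPS23, a protein of the small subunit found in mitochondria only, had peaks of nearly the same extent, 1863 bp (2.99) and 1789 bp (2.02). MRPS7, which contacts tRNA on the small subunit, had 1549 bp (3.26) and 789 bp (1.93). The map of peaks around the starts shows these pairs at the top, with the edges of the replicates' peaks close together in MRPL34 and MRPS23 and apart in MRPL30 and MRPS12.

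**Figure D3:**
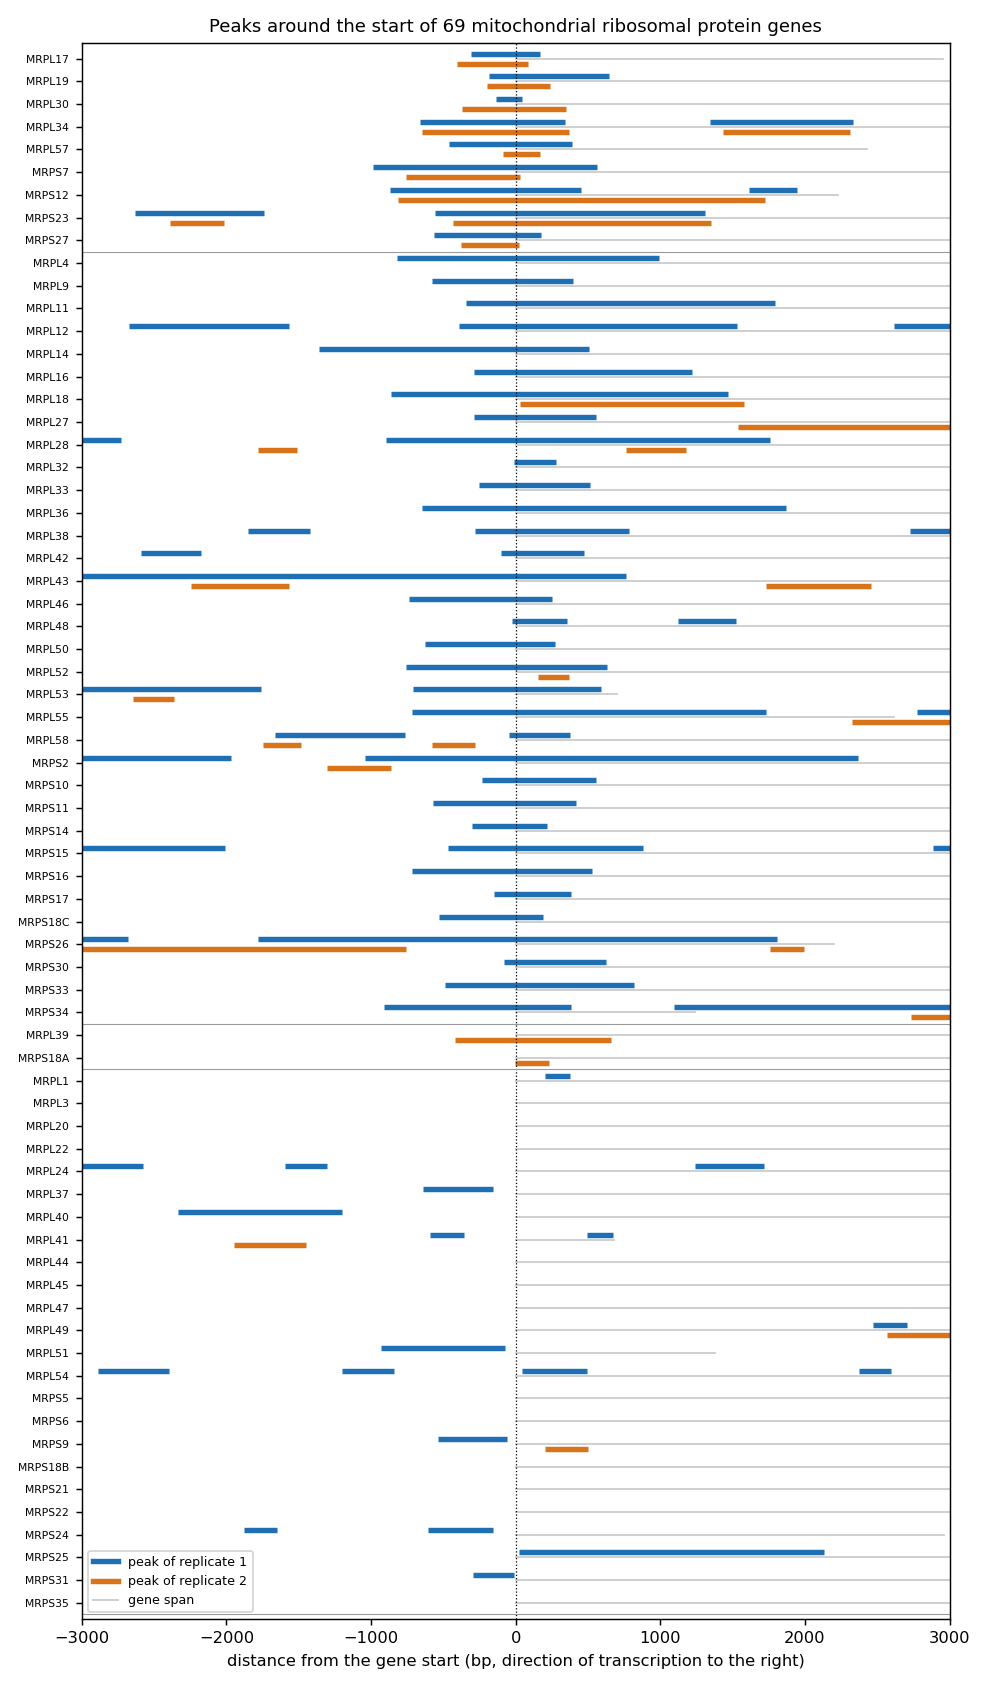
Peaks within 3 kb of the start (x axis, bp from the first base, with transcription to the right) of the 69 members with a known strand, 1 row per gene. Blue bars are peaks of replicate 1, orange bars peaks of replicate 2 and grey lines gene spans; horizontal lines separate, from the top, 9 members with a start peak of both replicates, 34 of replicate 1 alone, 2 of replicate 2 alone and 24 of neither.

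The promoters under 6 of these pairs are printed to show the sequence beneath overlapping peaks of the replicates at a start. Each runs 5′ to 3′ on the strand of the gene, from 250 bases before the first base to 50 bases including it, from RefSeq on GRCh38.p14, the same build as hg38. The first 3 came from the rule for named genes, and MRPL57, MRPL17 and MRPL30 were added after their values and motifs were seen. Capitals mark matches on either strand to 5 motifs of factors known to act at promoters of housekeeping genes: CCGGAAG (ETS factors), TGCGCA followed by any base and GCGCA (NRF1), AAGATGGCG (YY1), CCAAT (NF-Y) and GGGCGG (SP factors). In order, the windows are chr19:17292323-17292622 on the plus strand, chr5:72320191-72320490 on the minus strand, chr2:75646533-75646832 on the plus strand, chr13:21176408-21176707 on the plus strand, chr11:6683291-6683590 on the minus strand and chr2:99180934-99181233 on the plus strand.
MRPL34: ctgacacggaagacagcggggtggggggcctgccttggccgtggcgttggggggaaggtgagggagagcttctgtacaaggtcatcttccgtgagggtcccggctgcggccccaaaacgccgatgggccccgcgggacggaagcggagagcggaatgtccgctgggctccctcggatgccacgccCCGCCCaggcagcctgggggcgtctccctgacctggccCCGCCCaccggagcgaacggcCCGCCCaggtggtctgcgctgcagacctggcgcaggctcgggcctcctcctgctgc
MRPS27: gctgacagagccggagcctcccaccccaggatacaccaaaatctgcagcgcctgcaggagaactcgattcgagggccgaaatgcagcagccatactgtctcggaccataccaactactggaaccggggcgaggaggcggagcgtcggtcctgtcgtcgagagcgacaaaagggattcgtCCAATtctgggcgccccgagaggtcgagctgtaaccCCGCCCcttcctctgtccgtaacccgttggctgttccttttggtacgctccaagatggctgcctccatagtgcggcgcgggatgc
MRPL19: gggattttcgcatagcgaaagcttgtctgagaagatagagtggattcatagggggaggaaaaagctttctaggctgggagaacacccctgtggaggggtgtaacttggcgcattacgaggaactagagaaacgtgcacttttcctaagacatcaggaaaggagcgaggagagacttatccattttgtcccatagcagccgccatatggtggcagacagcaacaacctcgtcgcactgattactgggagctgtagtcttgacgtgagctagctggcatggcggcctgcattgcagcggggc
MRPL57: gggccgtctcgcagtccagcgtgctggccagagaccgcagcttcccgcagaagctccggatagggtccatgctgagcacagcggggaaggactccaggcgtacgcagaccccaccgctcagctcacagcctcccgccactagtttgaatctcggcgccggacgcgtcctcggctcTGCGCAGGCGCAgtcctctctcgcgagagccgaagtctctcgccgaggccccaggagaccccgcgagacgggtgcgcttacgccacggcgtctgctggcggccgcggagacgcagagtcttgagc
MRPL17: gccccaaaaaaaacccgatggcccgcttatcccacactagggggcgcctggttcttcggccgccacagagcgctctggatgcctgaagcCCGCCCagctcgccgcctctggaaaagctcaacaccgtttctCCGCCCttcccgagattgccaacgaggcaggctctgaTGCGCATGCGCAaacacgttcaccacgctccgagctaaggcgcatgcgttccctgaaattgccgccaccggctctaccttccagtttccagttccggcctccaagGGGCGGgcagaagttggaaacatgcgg
MRPL30: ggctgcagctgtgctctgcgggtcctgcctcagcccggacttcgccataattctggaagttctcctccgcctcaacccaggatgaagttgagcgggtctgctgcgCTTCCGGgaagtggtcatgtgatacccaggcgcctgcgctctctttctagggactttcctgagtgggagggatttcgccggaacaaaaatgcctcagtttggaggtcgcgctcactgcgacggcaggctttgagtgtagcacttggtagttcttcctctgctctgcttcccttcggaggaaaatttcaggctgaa

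The windows differed in composition. MRPL34 had 72.3% G and C with 27 CpG pairs and 3 SP matches. MRPL19 had 52.3% G and C with 12 CpG pairs and no match. MRPS27 had 1 NF-Y and 1 SP match, MRPL57 had 1 NRF1 match, MRPL17 had 1 NRF1 and 3 SP matches, and MRPL30 had 1 ETS match. No motif was common to the 6. MRPL17 and MRPL57 were the only members whose promoter held the NRF1 motif, which stood in 1.40% of the 15032 promoters of other genes.

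At MRPL34, a large-subunit protein with a bacterial counterpart, the pair covered the region chr19:17291914-17292942, from −659 to 369 bp relative to the first base, with fold enrichments of 3.66 in replicate 1 and 2.36 in replicate 2. MRPL34 is one of the members with several listed starts. Here and below a region is the joint extent of both peaks, so parts of it can lie under 1 peak alone. At MRPS27, a pentatricopeptide repeat protein of the small subunit, the region was chr5:72320065-72320806 (3.63 and 2.24). At MRPL19, a large-subunit protein with a bacterial counterpart, it was chr2:75646585-75647426 (3.57 and 2.15). The region of MRPL57, a protein without a bacterial counterpart, was chr13:21176200-21177047 (3.20 and 2.19), and that of MRPL17, at chr11:6683174-6683744, was the narrowest of the 29 members with such regions, at 571 bp (3.31 and 2.18). The region of MRPL30 was chr2:99180816-99181533 (2.81 and 2.34), where the peak of replicate 1 was only 180 bp wide.

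Most of the best-ranked members with overlapping peaks carried them inside the gene or at its far end. The 12 best were taken by the mean rank of their highest fold in the replicates, wherever that peak lay in the window. This need not be the fold of the overlapping pair. At MRPL19 the highest fold of replicate 2 was 2.66, while the replicate 2 peak of its pair had 2.15. MRPL34, MRPS27 and MRPL19 were among the 12, and MRPS7 tied with MRPL49 for the last place. MRPS25, a small-subunit protein found in mitochondria only, had 7 peaks of replicate 1 and 5 of replicate 2, the most among members in both lists. Its best pair lay at the far end, at chr3:15040426-15043055 (fold 3.05 and 2.34), where the peaks met only from 15041335 to 15041396. MRPL4, whose protein lines the exit tunnel, had its pair in the gene body at chr19:10256722-10257677 (3.0 and 2.35). MRPL24, also near the tunnel exit, had it at the far end, at chr1:156735747-156738771 (3.19 and 2.73). MRPL37, found in mitochondria only, held 7 peaks of replicate 1 and 1 of replicate 2, which met at chr1:54214987-54217023 (3.71 and 2.12).

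In the remaining members of this group the pair again lay off the start or the strand was unknown. MRPS18A, whose product is part of the large subunit in spite of its name, had its pair at the far end, at chr6:43670764-43671529 (fold 3.79 in replicate 1 and 2.16 in replicate 2). MRPS15 had its pair at the far end at chr1:36455496-36456866 (3.46 and 2.08), and MRPL55 at chr1:228101991-228106974 (3.23 and 2.35), the widest region of all at 4984 bp. The peaks of the MRPL55 pair met only from 228106013 to 228106526. MRPL49 had it in the gene body at chr11:65124654-65126718 (3.44 and 2.18). MRPS28, whose strand was not in the table used, had it at its higher-coordinate end, at chr8:80029677-80030596 (3.21 and 2.49). Over all 29 members with overlapping peaks, 9 had them on the start and 18 with a known strand did not. For the other 2 no strand was given, so their pairs could not be placed relative to the start.

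**Figure D4:**
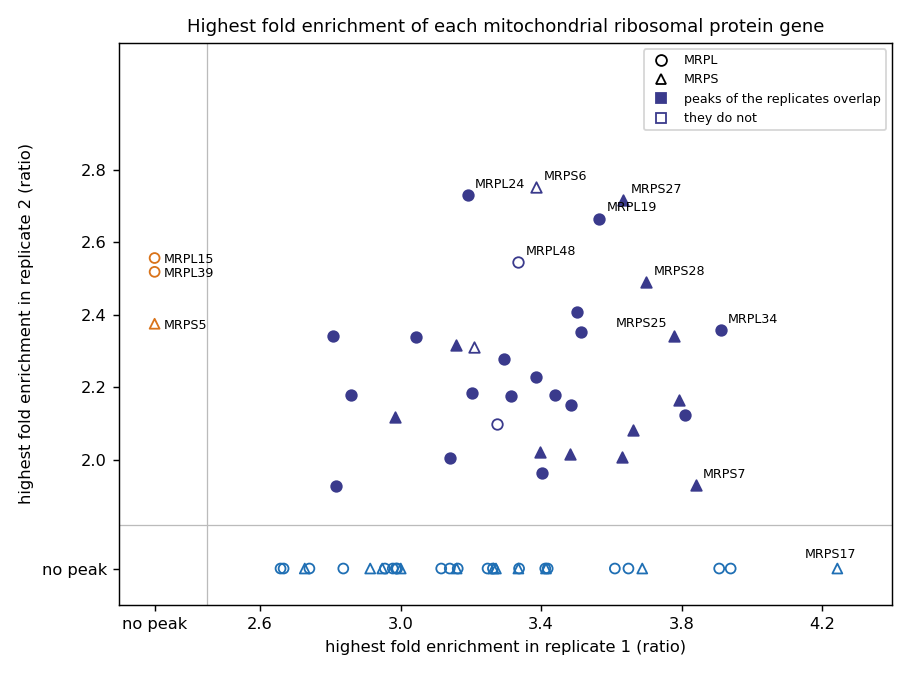
Highest fold enrichment of the peaks of each member in replicate 1 (x axis) and replicate 2 (y axis), both as the authors' ratio. Circles are MRPL genes and triangles MRPS genes; filled symbols have overlapping peaks of the replicates, and the margins hold members without a peak of that replicate (the 10 with neither are not drawn). The 33 members with both lie within narrow ranges, 2.81 to 3.91 in replicate 1 and 1.93 to 2.75 in replicate 2. The highest of replicate 1, MRPS17 at 4.24, has no peak of replicate 2 in its window.

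The most significant peaks of the replicates were at different genes, apart from MRPS25, where they lay at different ends of the gene. That of replicate 1 lay 22 to 2132 bp downstream of the MRPS25 start, and that of replicate 2 lay 23919 to 24889 bp downstream. In replicate 1 the highest −log10 q belonged to MRPL34 (3.39), followed by MRPS17 (3.32), MRPS25 (2.97), MRPL12 (2.90) and MRPL37 (2.89). The MRPL34 peak lay 12978 to 13876 bp downstream of the outermost start and covered other starts listed for the gene. The peaks of MRPS17, a small-subunit protein with a bacterial counterpart, and of MRPL12, the stalk protein of the large subunit, covered the start. Neither MRPS17 nor MRPL12 had a peak of replicate 2 in its window. The nearest lay 296 bp outside the window of MRPS17 and 1897 bp outside that of MRPL12. In replicate 2 the order was MRPS25 (2.85), MRPL48 (2.85), MRPL24 (2.82), MRPL21 (2.2) and MRPL4 (2.13). The MRPL48 peak, 292 bp wide and 42410 bp downstream of the start, met none of the 6 peaks of replicate 1 in that gene. At a −log10 q of at least 2, 40 members (51.9%) kept a peak of replicate 1, against 56.1% of genes of like length and density. Only 7 (9.09%) kept one of replicate 2, against 25.1%, and 5 (6.49%) one of each, against 19.4%.

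In 4 members both replicates had peaks that did not meet: MRPL10, MRPL48, MRPS6 and MRPS9. MRPS6 held 1 peak of replicate 1 and 4 of replicate 2, the highest of which, at a fold of 2.75, was the strongest by fold in any member in that list. At MRPS9 the peaks flanked the start: that of replicate 1 ended 58 bp upstream of it and that of replicate 2 began 205 bp downstream.

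The 31 members with peaks of replicate 1 alone had a highest fold between 2.66 and 4.24, with a median of 3.16, and 17 of them held a single peak. A start was covered in 20 of the 28 with a strand. They were MRPL1, MRPL2, MRPL9, MRPL11, MRPL12, MRPL13, MRPL14, MRPL32, MRPL33, MRPL35, MRPL36, MRPL38, MRPL41, MRPL42, MRPL44, MRPL46, MRPL50, MRPL51, MRPL53, MRPL54, MRPS10, MRPS14, MRPS16, MRPS17, MRPS18C, MRPS22, MRPS24, MRPS30, MRPS31, MRPS33 and MRPS34. In some of them a peak of replicate 2 lay just outside the window. The distance was 267 bp at MRPL9, 296 bp at MRPS17, 448 bp at MRPL41 and 494 bp at MRPS34. At the others it was larger, up to 104968 bp at MRPS16.

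Peaks of replicate 2 without one of replicate 1 were found in MRPL15 (fold 2.56), MRPL39 (2.52) and MRPS5 (2.37). The MRPL39 peak, 1084 bp wide, covered the start. The nearest peak of replicate 1 was 23481 bp away from the MRPL15 window, 125340 bp from that of MRPL39 and 21687 bp from that of MRPS5. All 3 lay in sparse stretches, with 15.5, 4.5 and 15 peaks of replicate 1 per Mb.

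Neither replicate had a peak in MRPL3, MRPL20, MRPL22, MRPL23, MRPL40, MRPL45, MRPL47, MRPS18B, MRPS21 and MRPS35. Among them MRPL23 and MRPL45 encode proteins at the exit of the tunnel through which the new chain leaves the ribosome. MRPS18B stood alone: the nearest peaks were 2112364 bp away in replicate 1 and 2109875 bp away in replicate 2, and none lay within 1 Mb. For MRPL45 they were 528808 and 547168 bp away. MRPL40 narrowly missed, with a peak of replicate 1 only 203 bp outside its window. The 13 members without a peak of replicate 1 had a median length of 22204 bp, against 8060 bp for the 64 with one, and a median local density of 29.5 peaks per Mb, against 124. In the sparsest of the 5 density bins, 9 of 17 members had a peak of replicate 1 (52.9%), against 59.0% of other genes. In the densest, all 24 did (100%), against 95.4%.

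In replicate 2 the members' share lay below that of other genes in each of the 5 density bins. From the sparsest to the densest bin it was 28.6% in members and 41.9% in other genes, 47.1% and 58.7%, 22.2% and 68.4%, 62.5% and 76.0%, and 57.1% and 85.4%. These bins hold 9 to 21 members each and are not matched for length.

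By length, the shortest members differed from the longer ones in replicate 1. In the shortest of the 5 length bins, up to 6662 bp, 30 of 32 members (93.8%) had a peak of replicate 1, against 62.5% of other genes, and in the next, up to 16672 bp, 21 of 25 (84%), against 79.1%. In the longer bins the members' share lay below that of other genes, with 4 of 7 (57.1%) against 84.5% up to 35683 bp and 6 of 10 (60%) against 89.4% up to 83980 bp, while all 3 of the longest had a peak, against 94.1%. In replicate 2 the shortest bin gave 13 of 32 members (40.6%), against 39.7% of other genes. The other bins were lower in members: 13 of 25 (52%) against 63.1%, 4 of 7 (57.1%) against 67.8%, 4 of 10 (40%) against 74.2%, and 2 of 3 (66.7%) against 85%. The length bins are not matched for density.

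The promoters of the members differ from those of other genes in sequence. The 69 promoters available had a median of 24 CpG pairs in 300 bases, against 22 in other genes, and 60.3% G and C, against 62.7%. None had fewer than 7 CpG pairs, where other genes went down to 0. The ETS motif was found in 29 of 69 (42.0%), against 14.2% of other genes' promoters, and the YY1 motif in 13 (18.8%), against 2.67%. Either was present in 38. The SP motif was about as frequent as elsewhere (59.4% against 58.7%), and the CCAAT box somewhat rarer (29.0% against 36.1%). Matches of different motifs overlapped in 1 member promoter.

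Among other genes, a start peak of replicate 1 went with CpG-rich promoters: those with one had a median of 25 CpG pairs and those without 17. Among members the medians were 24 and 24.5. When other genes were sorted by CpG pairs in place of length, beside the local density, their share with a start peak of replicate 1 was 55.6%, against 62.3% in members. The difference was then 6.70 points, where sorting by length gave 16.6, and the interval of the members' share, 50.5% to 72.8%, contains the 55.6%. In replicate 2 it was 4.04 points, with 15.9% in members and 11.9% in other genes. This way of sorting was chosen after seeing the data.

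Start peaks of members with and without a motif were compared for each of the 5 motifs. A start peak of replicate 1 was found in 19 of 29 members with the ETS motif (65.5%) and in 24 of 40 without it (60%). For the YY1 motif it was 9 of 13 (69.2%) and 34 of 56 (60.7%). In other genes the corresponding shares were 63.5% with and 42.3% without the ETS motif, and 68.3% and 44.7% for YY1. In replicate 2, 4 of 29 members with the ETS motif (13.8%) and 7 of 40 without (17.5%) had a start peak, and so had 1 of 13 with the YY1 motif (7.69%) and 10 of 56 without (17.9%). The NRF1 motif stood in 2 members, MRPL17 and MRPL57, which had start peaks of both replicates, against 61.2% in replicate 1 and 13.4% in replicate 2 of the 67 without it. In other genes with and without the NRF1 motif, the shares were 64.9% and 45.1% in replicate 1. In replicate 2 they were 10.9% and 9.93%, which lie close together. For the CCAAT box the shares with and without it were 65% and 61.2% in replicate 1 and 15% and 16.3% in replicate 2, and for the SP motif 61.0% and 64.3%, and 17.1% and 14.3%. These are counts in few genes, and no difference was tested. A match describes these letters and says nothing about whether a factor binds.

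The MRPL and MRPS genes were compared as groups by symbol, so a large-subunit protein such as MRPS18A stands with the MRPS genes here. Of the MRPL genes, 40 of 49 (81.6%) had a peak of replicate 1 and 22 (44.9%) one of replicate 2. Of the MRPS genes it was 24 of 28 (85.7%) and 14 (50%). Start peaks of replicate 1 covered 27 of 42 MRPL genes (64.3%) and 16 of 27 MRPS genes (59.3%). The 48 members with a bacterial counterpart had a peak of replicate 1 in 81.3% and of replicate 2 in 50% of cases, and the 29 others in 86.2% and 41.4%. Each of these window shares lies inside the Wilson interval of the group it is set against. The intervals are wide, 32.6% to 67.4% for the MRPS genes in replicate 2. They cover the counting of genes alone, and no difference between the groups was tested.

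Assembly factors, translation factors and aminoacyl-tRNA synthetases of mitochondria had higher unmatched shares than the members in both replicates. The 5 mitoribosomal proteins with other symbols, 2 of 5 in each, had lower ones. The lists differ in gene length. In replicate 2, other genes of like length had 56.1% for the members, but 64.7%, 66.7% and 70.1% for the first 3 lists, in that order. Mitoribosome assembly factors had a peak of replicate 1 in 23 of 25 genes (92%, against 81.8% of like genes) and one of replicate 2 in 17 (68%, against 66.2%). Translation factors had 14 of 15 (93.3%, against 78.4%) and 8 (53.3%, against 61.4%). Among them TUFM, the elongation factor that brings aminoacyl-tRNA, had overlapping peaks (highest fold 3.33 and 2.75), as did GFM1, the translocation factor (3.92 and 2.54). Mitochondrial aminoacyl-tRNA synthetases had 15 of 17 (88.2%, against 77.9%) and 11 (64.7%, against 62.2%). Of the 5 mitoribosomal proteins with other symbols, PTCD3 had overlapping peaks (3.29 and 2.44), GADD45GIP1 a peak of replicate 1 alone (3.8), CHCHD1 one of replicate 2 alone (1.91), and DAP3 and AURKAIP1 none.

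Oxidative phosphorylation subunits, whose core partners the mitochondrial ribosome makes, had shares near those of the members. Of these genes 64 of 75 (85.3%, against 79.4% of like genes) had a peak of replicate 1 and 34 (45.3%, against 60.7%) one of replicate 2, and start peaks of replicate 1 covered 39 of 61 (63.9%, against 49.5%). Cytosolic ribosomal proteins had a larger excess in replicate 1, 76 of 81 (93.8%, against 71.6%), and none of the deficit in replicate 2, with 42 (51.9%, against 50.9%). Their starts were covered by replicate 1 in 43 of 64 genes (67.2%, against 45.9%) and by replicate 2 in 6 (9.38%, against 10.4%). A share of start peaks of replicate 1 above that of like genes was thus found in each of the 6 lists plotted, so it was not particular to the mitochondrial ribosome. Of the 5 proteins with other symbols, 2 had one (40%, against 40.1%).

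Many members share their windows with neighbours, so a peak cannot always be assigned to 1 gene. Another protein-coding gene met the window of 44 members. In 23 of the 69 with a strand, a neighbour on the other strand started within 1 kb. Start peaks of replicate 1 covered 17 of these 23 (73.9%) and 26 of the other 46 (56.5%), and start peaks of replicate 2 covered 5 (21.7%) and 6 (13%). Neither the neighbour counts nor these start shares were set beside those of other genes. They therefore do not show whether members are unusual in this respect. MRPL46 and MRPS11 face away from each other on chromosome 15 and share 1 peak of replicate 1, at chr15:88467135-88468123 (fold 3.04), which covers both starts. MRPS24 and MRPS28 lie within the readthrough genes URGCP-MRPS24 and TPD52-MRPS28, whose spans hold theirs. Among windows that meet no other protein-coding gene, 23 of 33 members (69.7%) had a peak of replicate 1, against 71.6% of like genes, so the difference of replicate 1 was −1.90 points there. There 12 of 33 (36.4%) had one of replicate 2, against 53.3%, and 9 (27.3%) had both, against 49.6%. This subset was chosen after seeing the data.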

How the data were processed

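The authors deposited 1 list of broad peaks per replicate, each for a ChIP library with its input, in hg38 coordinates; Bowtie2 2.2.9 and MACS2 2.1.1 are named, per the submitters' processing notes, without role or order, and the sources used here give no thresholds of the caller. The deposited columns hold a score, a fold enrichment (a ratio), a −log10 p-value and a −log10 q-value per peak; the score and the p-value were not used. Peak names of replicate 2 contain the word Merge, which the sources used here do not explain; if that list holds pooled reads, the lists are not independent. Nothing says that the replicates came from separate cultures beyond the label of biological replicates. No input peaks were analysed here.

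Genes, spans and promoters came from RefSeq tables of GRCh38.p14, with Python 3.11.15, pandas 2.3.3 and scipy 1.17.1. Promoters, which also gave the strand, were matched by symbol for 69 of 77 members. The start is the outermost base of the gene span. Shares were standardised over 5 bins of length by 5 of peak density within 1 Mb outside the window. No test was made, since each replicate gives 1 list and genes are not replicates. The members, lists and motifs were chosen with earlier results of these data known; the start-site comparisons were chosen after seeing the data. Named genes were the 12 best-ranked members with overlapping peaks, the 5 of highest −log10 q per replicate, members with peaks of replicate 2 alone, members with none, and members that share a window; sequences beyond the rule are marked as such. The code was tested on simulated data. Alternatives varied the window, the peak filter, the overlap and the bins.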

Additional observations from a re-analysis of the deposited data

How the results depend on the processing

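Over all alternatives run, the difference from genes of like length and density in replicate 2 stayed below 0 (−16.9 to −4.23 points) and the difference over the start in replicate 1 stayed above 0 (6.30 to 18.1 points). The replicate 1 difference over the window changed sign for peaks of −log10 q 2 or more (−4.16), for the 50% of higher fold (−2.63), for as many peaks as in replicate 2 (−0.339) and for windows that meet no other protein-coding gene (−1.90), where the difference for both replicates was −22.3. The replicate 2 difference over the start was −1.11 with a −log10 q of at least 2. The cause of these changes was not tested. Shares moved with the window and the filter. Within 5 kb, replicate 2 reached 61.0% and both replicates 57.1% of members, and within 1 kb of the start (of either end where the strand is unknown) 26.0% and 23.4%. With a −log10 q of at least 2 the shares were 51.9% for replicate 1 (like genes 56.1%), 9.09% for replicate 2 (25.1%) and 6.49% for both (19.4%), and with the peaks of higher fold 59.7% (62.4%), 23.4% (32.5%) and 16.9% (24.6%). With equal numbers of peaks replicate 1 gave 63.6%. Over the start, replicate 1 gave 73.9% within 250 bp, 39.1% at the higher q and 37.7% at higher fold, and replicate 2 gave 1.45% and 4.35% under those filters. Calling a gene on 1 replicate alone in place of both gave shares of 46.8% to 83.1% and differences of −9.97 to 5.90 points, the lower ends without replicate 1 and the upper without replicate 2. No paired analysis was possible because each replicate gives 1 peak list and no group of samples is compared. The unknown depth, the lack of a control precipitation among the lists used and the low fold of all member peaks limit every value.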
